A study of Caenorhabditis elegans with 66 samples.

Results

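Mature piRNAs that are less abundant in *rpb-9* (*mj261*) animals than in wild type were described here by level, position, strand and promoter sequence. All 4317 piRNAs of the deposited table made from 5′ dependent small RNA libraries were taken, out of 15363 annotated piRNA genes of WBcel235. The table lists only piRNAs with a lower value in *rpb-9*, so the direction of the change is a property of the table and was not tested. Other annotated piRNAs have no mature value here.

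piRNAs of *C. elegans* are short germline RNAs that start with a U and guide the Piwi protein PRG-1 to foreign and transposon transcripts. RNA polymerase II transcribes each of them from its own small gene as a short capped precursor, and most genes lie in broad clusters on chromosome IV downstream of a conserved upstream motif. RPB-9 is a small, non-essential subunit of RNA polymerase II in yeast, where it acts in elongation and transcript cleavage.

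All small RNA came from whole animals grown on HB101 bacteria and carrying a piRNA sensor transgene. The *rpb-9* animals carried the chemically induced *mj261* allele, a premature stop in the TFIIS C-like domain, which may leave some function. Rescue animals (*mj261; mjSi70*) carried the same allele and a single-copy transgene that expresses *rpb-9* from the germline promoter of *mex-5*. Short capped RNA of the same 3 genotypes came from germ nuclei of young adults, split into a chromatin-bound (nascent) and a nucleoplasmic fraction, with 2 libraries per genotype and fraction. The strain name on the wild-type capped libraries was matched by elimination. The labels do not say whether libraries came from separate cultures, so the spread between them may be technical. The level of *rpb-9* mRNA and of germline marker mRNAs was not analysed here. In RNA from whole animals, fewer germ cells and less RNA per germ cell cannot be told apart.

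Each mature value is the mean, over the libraries of a genotype, of log2(RPM + 1), where RPM is reads per 1000000 reads of the library. Low values are made of whole reads, and this gave back the libraries behind them. The *rpb-9* values resolved into 3 libraries of 9000499, 8124378 and 7396277 reads, and the rescue values into 3 libraries of 10924014, 7661417 and 3782503 reads. The wild-type values resolved into only 2 libraries, of 2634941 and 1813824 reads, although 3 are labelled. Whole reads were found for 96.5% of the wild-type values and 91.8% of the *rpb-9* values, and for both genotypes in 3912 piRNAs. The recovered libraries cannot be matched to replicate numbers and are given in order of decreasing depth. A single read was worth 0.380 or 0.551 RPM in wild type and between 0.111 and 0.135 RPM in *rpb-9*.

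Summed over the 4317 piRNAs, the level fell from 91141 RPM in wild type to 21948 RPM in *rpb-9*, which is 24.1% of wild type. In rescue animals the sum was 99.04% of wild type. The median difference was −0.69 on the log2(RPM + 1) scale, with quartiles of −1.44 and −0.28. The listed differences range from −4.34 to −0.0005, so the table also holds piRNAs whose values were almost equal. Among the 2419 piRNAs with at least 1 RPM in wild type, the median level in *rpb-9* was 23.3% of wild type (quartiles 15.1% and 35.7%), and 2088 of them (86.3%) kept less than 50% of it. Rescue exceeded *rpb-9* for 2405 of these 2419 piRNAs. Over the resolved piRNAs, the 3 *rpb-9* libraries held 18.7%, 24.9% and 26.0% of the mean wild-type sum, so the deepest *rpb-9* library was the lowest. The wild-type libraries held 101% and 98.9% of that mean.

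**Figure D1:**
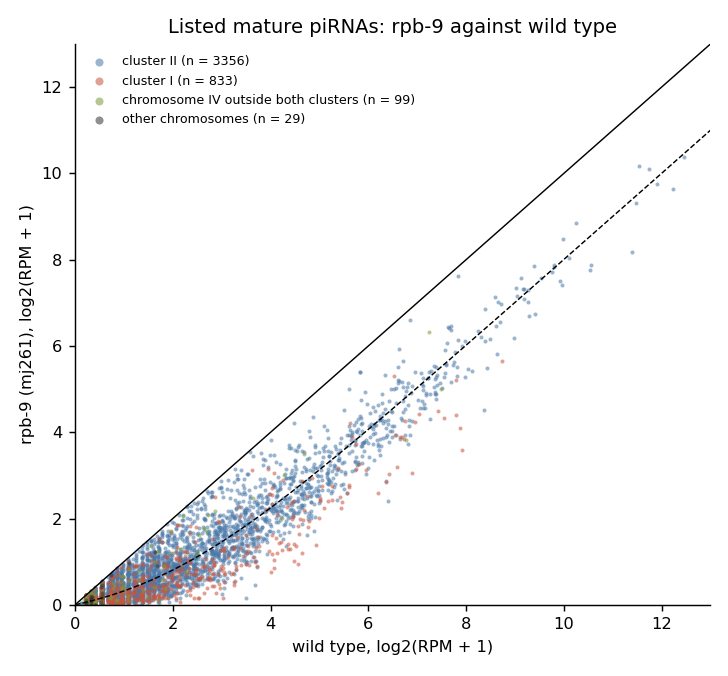
Each point is 1 listed piRNA, with its wild-type level on the x axis and its *rpb-9* level on the y axis, both as log2(RPM + 1) of the authors' pooled value. The solid line marks equal levels and the dashed line 25% of wild type. All 4317 points lie below the solid line because the table lists only such piRNAs, and those of cluster I lie mostly below the dashed line.

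The 5 most abundant piRNAs all lie in the larger cluster of chromosome IV and are above the level at which single libraries could be resolved. 21ur-38 had a pooled level of 5640 RPM in wild type, 1340 in *rpb-9* and 5753 in rescue. 21ur-3506 had 4845 RPM in wild type and 794 in *rpb-9*, or 16.4%. 21ur-3215 had 3845 and 866 RPM. 21ur-1114 kept 31.9% and 21ur-4748 kept 38.3% of wild type. Thus the 5 lay on both sides of the 24.1% of the whole table, with 21ur-3506 lowest and 21ur-4748 highest. 21ur-1114 is also 1 of the few piRNAs annotated with a first base other than T.

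The 60 bases of DNA before the piRNA and its 21 bases are shown for the piRNAs of at least 10 RPM with the 5 largest and the 5 smallest falls on the log2(RPM + 1) scale, because the groups differ in the upstream motif described further on. Sequences are from the RefSeq assembly WBcel235, read 5′ to 3′ on the piRNA strand. Capitals mark the 8 bases most like the motif CTGTTTCA and, at the end, the piRNA itself. The largest falls come first.
21ur-8059 (chrIV:5447884-5447964, plus strand): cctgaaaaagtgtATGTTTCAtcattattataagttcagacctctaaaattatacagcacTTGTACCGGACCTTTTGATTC
21ur-421 (chrIV:14947326-14947406, minus strand): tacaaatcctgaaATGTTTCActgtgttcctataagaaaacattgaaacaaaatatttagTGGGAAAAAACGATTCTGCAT
21ur-1909 (chrIV:16537902-16537982, minus strand): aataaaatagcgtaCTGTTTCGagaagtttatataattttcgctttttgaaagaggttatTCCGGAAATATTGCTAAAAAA
21ur-6751 (chrIV:5614977-5615057, minus strand): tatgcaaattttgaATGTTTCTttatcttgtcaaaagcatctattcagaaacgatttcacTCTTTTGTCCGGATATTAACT
21ur-6090 (chrIV:5288857-5288937, plus strand): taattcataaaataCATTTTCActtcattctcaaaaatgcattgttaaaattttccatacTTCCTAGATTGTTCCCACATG
The smallest falls follow.
21ur-7034 (chrIV:13767454-13767534, plus strand): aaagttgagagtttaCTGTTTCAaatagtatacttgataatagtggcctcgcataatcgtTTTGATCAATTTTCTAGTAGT
21ur-6411 (chrIV:16574984-16575064, plus strand): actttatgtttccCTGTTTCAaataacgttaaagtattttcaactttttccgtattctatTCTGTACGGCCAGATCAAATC
21ur-5144 (chrIV:16006585-16006665, minus strand): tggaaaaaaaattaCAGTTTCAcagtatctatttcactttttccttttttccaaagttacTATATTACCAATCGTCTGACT
21ur-3457 (chrIV:16383213-16383293, minus strand): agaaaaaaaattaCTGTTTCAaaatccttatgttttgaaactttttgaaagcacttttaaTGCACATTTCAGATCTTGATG
21ur-5666 (chrIV:17143259-17143339, minus strand): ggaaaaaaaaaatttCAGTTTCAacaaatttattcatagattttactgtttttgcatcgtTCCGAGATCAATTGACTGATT

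The largest fall was that of 21ur-8059, in an annotated gene on its own strand. Its level was 224 and 260 RPM in wild type against 10.7, 10.8 and 11.5 RPM in *rpb-9*, with a pooled rescue level of 274. 21ur-421 had 68.3 and 101 RPM in wild type and 3.00, 4.92 and 5.14 RPM in *rpb-9*. Its rescue level of 30.7 RPM stayed below both wild-type libraries. 21ur-6751 had 107 and 128 RPM in wild type and 6.0, 8.0 and 8.25 RPM in *rpb-9*. The libraries of the genotypes were far apart for these 3 piRNAs. 21ur-1909 and 21ur-6090 kept 6.69% and 6.83% of their pooled wild-type levels of 329.5 and 234.7 RPM.

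Some abundant piRNAs were hardly lower. 21ur-7034, the smallest fall, had a pooled level of 10.9 RPM in wild type and 10.7, 9.85 and 11.2 RPM in the *rpb-9* libraries. 21ur-6411 had 11.8 and 11.0 RPM in wild type and 11.1, 9.23 and 9.33 RPM in *rpb-9*, so the genotypes overlapped. They also overlapped for 21ur-5144, with 12.9 and 17.6 RPM against 14.9, 11.2 and 13.2 RPM. 21ur-3457 had a pooled level of 226 RPM in wild type and 197 in *rpb-9*, and 21ur-5666 had 114 and 96.3 RPM. Both had higher pooled rescue levels, of 354 and 194 RPM. Of the 5 largest falls, 3 lie in the smaller cluster of chromosome IV, and all 5 of the smallest falls lie in the larger cluster.

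**Figure D2:**
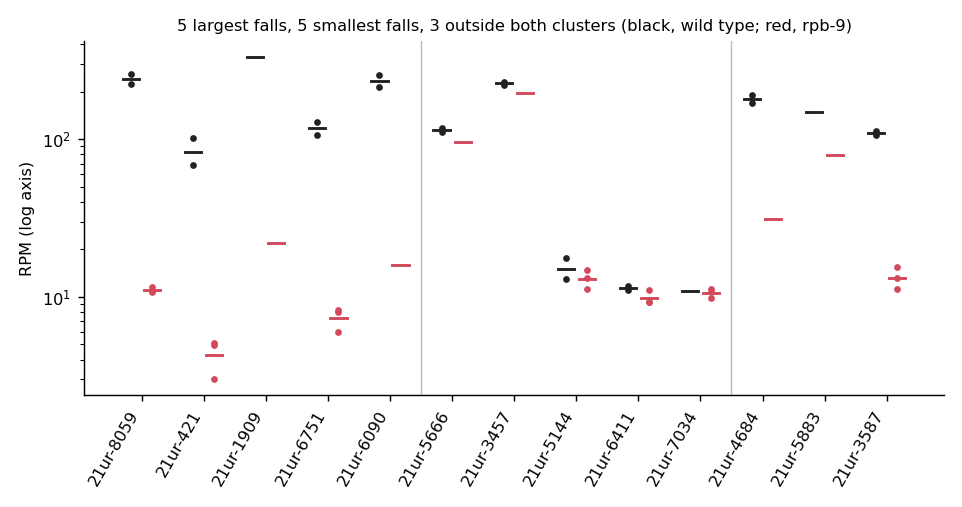
Points are RPM of single recovered libraries and bars are the authors' pooled values, for wild type (black, 2 libraries) and *rpb-9* (red, 3 libraries), on a log axis. Bars without points are piRNAs whose libraries could not be resolved. The 5 largest falls are separated by more than 10-fold, the 5 smallest lie close together, and of the 3 most abundant piRNAs outside both clusters 21ur-5883 fell least.

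Of the listed piRNAs, 465 (10.8%) were at 0 in all *rpb-9* libraries and 109 were at 0 in rescue. The most abundant of those at 0 in *rpb-9* had few reads in wild type. 21ur-4586 had 5 and 3 wild-type reads, 21ur-8608 had 4 and 3, and 21ur-37 had 5 and 2. In the deeper rescue libraries they had 13, 6 and 0 reads, 7, 4 and 5 reads, and 11, 9 and 4 reads. 21ur-8099 had 2 and 0 reads in wild type, 0 in every *rpb-9* library, and 10, 9 and 1 reads in rescue. 21ur-4997 had 1 read in each wild-type library, 1, 1 and 0 reads in *rpb-9*, and 9, 4 and 3 reads in rescue. The wild-type depth was too low to show a loss for either of the last pair alone.

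Read support set how many piRNAs were separated between the libraries. Of 4167 piRNAs resolved in wild type, 810 (19.4%) rested on 1 wild-type read in total and 1563 (37.5%) on 3 reads or fewer. Every wild-type library lay above every *rpb-9* library for 2270 of 3912 piRNAs, which is 58.0% of all piRNAs that could be compared, and the table holds no others to compare them with. None of the 789 piRNAs with 1 wild-type read can meet this condition. The share was 39.6% with 2 to 3 reads, 66.3% with 4 to 9, 85.6% with 10 to 29, 97.7% with 30 to 99, and 100% of the 233 piRNAs with 100 or more reads.

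The part of the summed level kept in *rpb-9* was somewhat smaller in the higher classes of wild-type level. The 1898 piRNAs under 1 RPM kept 31.0% of their summed level, the 1641 from 1 to 10 RPM kept 29.4%, the 641 from 10 to 100 RPM kept 24.2%, and the 137 of at least 100 RPM kept 23.5%. The median percent kept varied less and was not ordered by level, with 23.9%, 24.6%, 21.6% and 22.2% in these classes. On the log2(RPM + 1) scale the median differences of these classes were −0.27, −1.10, −1.99 and −2.17. The pseudocount of 1 compresses the differences of low piRNAs, so the medians on this scale vary far more with the level than the percentages do. Classes set by the rescue level, which the difference does not contain, kept 23.9%, 28.4%, 23.8% and 23.8%. Spearman's correlation across the 2419 piRNAs of at least 1 RPM was −0.08 between the wild-type level and the percent kept. The same wild-type value enters both measures.

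Position on chromosome IV was associated with the size of the loss. Cluster I, where listed piRNAs start between positions 4786735 and 6994411, held 833 of the 4317 piRNAs, and cluster II, between 13543927 and 17199441, held 3356. The annotation places 2816 and 11388 piRNA genes in these regions. Cluster I kept 14.4% of its summed wild-type level and cluster II kept 24.7%. Among piRNAs of at least 1 RPM, the median kept was 14.1% in cluster I (n = 364, quartiles 8.62% and 23.3%) and 24.7% in cluster II (n = 2017, quartiles 16.7% and 36.7%). Their median wild-type levels were 3.88 and 5.02 RPM. At 10 to 100 RPM in wild type the medians were 12.4% and 22.7%, and at 100 RPM or more 12.6% and 23.1%. In rescue, the summed level was 111% of wild type in cluster I and 98.1% in cluster II.

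The difference was present in every library. Over the 3792 piRNAs of both clusters that were resolved into libraries, which leaves out the most abundant ones, cluster I gave 19.0% and 20.1% of the RPM of both clusters in wild type, against 11.7%, 12.2% and 12.4% in *rpb-9*. The 2 genotypes did not overlap, with means of 19.5% ± 0.781 (SD, n = 2) and 12.1% ± 0.325 (SD, n = 3), and the exact two-sided permutation test gave p = 0.2, the smallest value that 2 against 3 libraries allow. Over all listed piRNAs of both clusters the pooled share of cluster I was 6.64% in wild type and 3.98% in *rpb-9*. On the log2(RPM + 1) scale the order of all listed piRNAs was the opposite, with medians of −0.60 in cluster I and −0.75 in cluster II. A larger share of cluster I was under 1 RPM in wild type (56.3% against 39.9% in cluster II), with a median of 0.810 RPM against 1.77.

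Within each cluster the loss varied little from window to window. In windows of 0.25 Mb with at least 20 piRNAs of 1 RPM or more, the median kept ranged from 10.03% to 16.1% over 7 windows of cluster I and from 22.1% to 29.9% over 15 windows of cluster II, and the ranges did not overlap. The last pair of windows of cluster I held few such piRNAs and had higher medians, of 45.96% (n = 4) and 43.3% (n = 11). Outside both clusters on chromosome IV, the 35 piRNAs of at least 1 RPM kept a median of 39.8%.

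**Figure D3:**
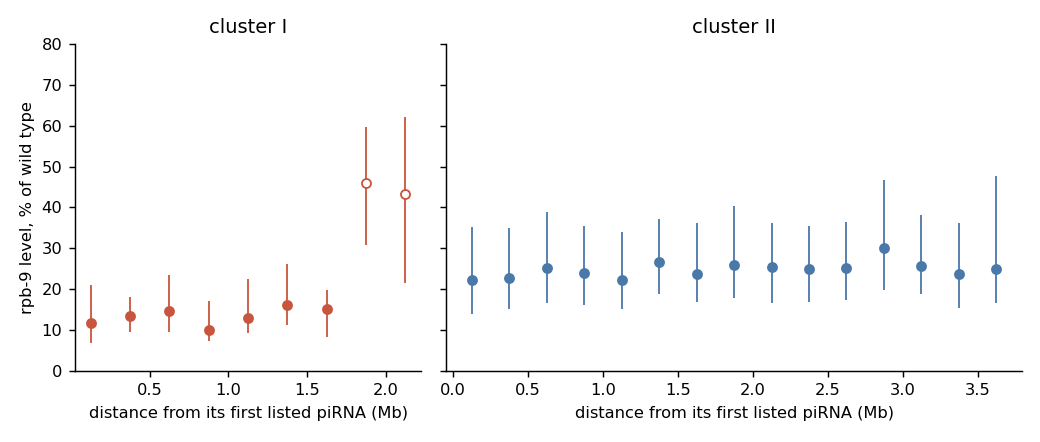
Median level in *rpb-9* as a percent of wild type (points) with quartiles (bars) in windows of 0.25 Mb, for piRNAs of at least 1 RPM in wild type, by distance from the first listed piRNA of each cluster. Open points are windows with fewer than 20 piRNAs. Filled points of cluster I lie between 10.03% and 16.1%, below all points of cluster II, and the 2 open points of cluster I lie above them.

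The 3 most abundant piRNAs outside the clusters differed among themselves. 21ur-5883, between the clusters at position 9140165, kept 52.9% of a pooled wild-type level of 150 RPM. 21ur-4684 and 21ur-3587 start at 17205944 and 17228609, just beyond the bound used for cluster II, and kept 17.4% and 12.1%. 21ur-3587 had 106 and 112 RPM in wild type and 11.2, 15.5 and 13.2 RPM in *rpb-9*. The 29 listed piRNAs on other chromosomes were rare, with 3 at 1 RPM or more, and kept 44.3% of their summed level.

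The loss differed little between strands and between classes of host gene. The plus strand held 2165 and the minus strand 2152 of the listed piRNAs, and the median kept at 1 RPM or more was 23.4% and 23.1%. In cluster I it was 14.4% on the plus strand and 13.9% on the minus strand, and in cluster II 24.9% and 24.4%. Summed levels in cluster II were 26.6% and 22.8% of wild type. Among resolved piRNAs the plus strand gave 51.4% and 50.5% of the RPM of cluster I in wild type and 49.6%, 48.8% and 47.3% in *rpb-9* (exact two-sided permutation test, p = 0.2, the smallest possible for these libraries). In cluster II it gave 49.2% and 49.1% in wild type and 50.6%, 49.5% and 50.1% in *rpb-9*, with the same p of 0.2 by the exact permutation test. The shifts were small and opposite in the clusters. Over all listed piRNAs the pooled share of the plus strand was 53.1% in wild type and 50.3% in *rpb-9* in cluster I, and 50.2% and 54.0% in cluster II. The counting options name no strand, so RNA antisense to a piRNA could not be told apart from it. Among listed piRNAs, 2698 overlap no other annotated gene, 800 lie within a gene on the same strand and 817 within a gene on the opposite strand. In cluster I these kept medians of 14.1%, 12.7% and 14.5%, and in cluster II 24.4%, 24.9% and 25.2%.

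Most *C. elegans* piRNA genes carry the motif CTGTTTCA, or a sequence like it, at a fixed distance before the piRNA, and the motif is bound by factors needed for piRNA transcription. An exact copy on the piRNA strand within the 60 bases before the first base was found for 1343 listed piRNAs (31.1%), for 33.5% of all annotated piRNA genes and for 34.5% of those not listed. In the 60 bases before the start of protein-coding genes its share was 0.330%, and on the opposite strand of the piRNA windows it was 0.579% in listed and 0.677% in annotated piRNAs. In listed piRNAs the exact copy started most often 46 bases before the piRNA (609), then 47 (351) and 45 (277) bases before it. A T as the first base was found in 97.5% of listed and 96.2% of annotated piRNAs.

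piRNAs with an exact motif kept more of their wild-type level. Among piRNAs of at least 1 RPM, divided into 4 equal groups from the most to the least lost, the exact motif was present in 18.2%, 22.5%, 27.6% and 48.8%. The median kept was 31.8% with the exact motif (n = 708) and 21.2% without it (n = 1711). Ordered by the best ungapped match to the 8 letters anywhere in the window, it was 17.3% with 5 or fewer matching letters, 18.2% with 6, 23.3% with 7 and 31.8% with 8. The median wild-type levels of these classes were 4.84, 4.36, 5.08 and 4.35 RPM. Rescue as a percent of wild type rose in the same order, with medians of 86.8%, 93.0%, 98.2% and 105.3%. The match classes were chosen after the values had been seen.

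In both clusters the median kept was highest with all 8 letters and lowest with 6 or fewer. In cluster I the medians were 10.5% (n = 12), 9.91%, 14.2% and 17.9%, and in cluster II 18.2%, 19.6%, 24.4% and 32.7%, from 5 or fewer matching letters to 8. At 10 RPM or more in wild type the difference narrowed, with 25.3% kept with the exact motif (n = 204) and 20.7% without it (n = 574). As a percent of the rescue level it was 28.0% with 8 matching letters and 20.4% with 6. The table holds no piRNA that kept all of its wild-type level, which limits the classes from above. Spearman's correlation between the number of matching letters and the percent kept was 0.30 across 2419 piRNAs.

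In single libraries, over the 3912 resolved piRNAs, those with the exact motif gave 26.2% and 25.9% of the RPM in wild type and 34.0%, 31.3% and 31.2% in *rpb-9*. The genotypes did not overlap (exact two-sided permutation test, p = 0.2, the smallest possible). Within cluster I the shares were 25.9% and 25.3% in wild type and 35.0%, 32.8% and 33.9% in *rpb-9*, and within cluster II 26.4% and 26.2% against 34.0%, 31.1% and 30.9%. Over all listed piRNAs the shift was smaller, with a pooled share of 24.8% in wild type and 28.5% in *rpb-9*. Of the sequences shown above, none of the 5 largest falls has the exact motif and 3 of the 5 smallest do, the others having CAGTTTCA. Among all 778 listed piRNAs of at least 10 RPM, 204 have it. The sequences shown were picked by their fall in these same values, so they illustrate the motif difference and add no separate evidence. Of the other features examined, the median GC content of the piRNA was 33.3% in each of the 4 groups, the median start of the exact motif was −46 in each of them, and the median AT content of the next 40 bases was 72.5% or 75%.

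**Figure D4:**
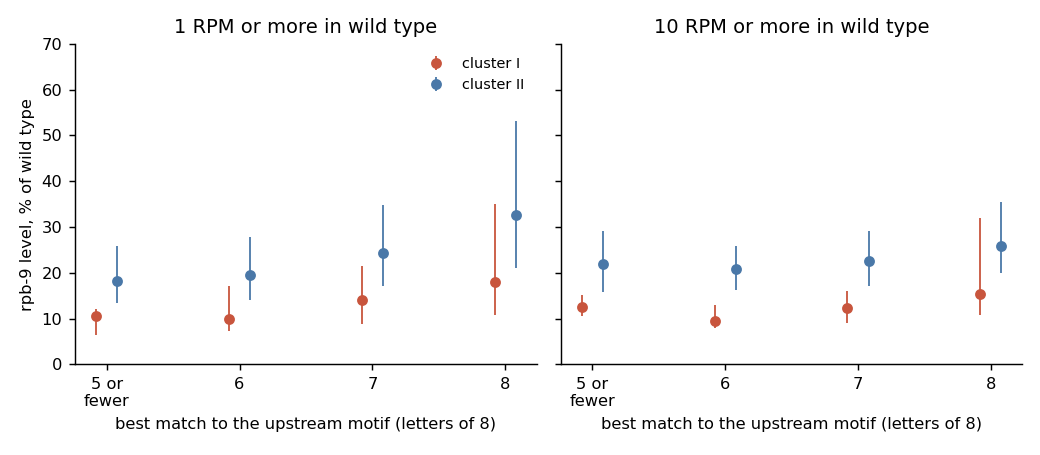
Median level in *rpb-9* as a percent of wild type (points) with quartiles (bars), by the number of letters matching the upstream motif, in cluster I (red) and cluster II (blue). At 1 RPM or more (left) the medians of cluster II go from 18.2% with 5 or fewer letters to 32.7% with 8, and at 10 RPM or more (right) from 21.9% to 25.8%, and cluster I lies below cluster II in every class.

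Short capped RNA gives a readout of the listed genes from libraries other than those behind the table. All deposited capped sequences start 2 bases before the position given for the piRNA, so start sites could not be compared between genotypes. Reads were present at 2542 listed loci (58.9%). The listed loci gave a nascent signal of 8512 and 9450 in wild type, 3616 and 4632 in *rpb-9*, and 4339 and 5094 in rescue, in units of the authors' normalized signal. The *rpb-9* mean was 45.9% and the rescue mean 52.5% of the wild-type mean, and neither overlapped wild type (exact two-sided permutation test, p = 0.333, the smallest that 2 against 2 libraries allow). Both comparisons share the wild-type libraries. The summed mature level of all listed piRNAs in rescue was close to wild type, whereas the summed nascent signal in rescue lay below both wild-type libraries. The 10 loci with the highest wild-type signal held 27.1% of it, and without them *rpb-9* had 43.3%. In the nucleoplasm the wild-type signals were 4596 and 2948 and those of *rpb-9* were 3133 and 1422, which overlapped.

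The nascent signal fell more in cluster I, as the mature piRNAs did. It was 477 and 537 in wild type, 88.0 and 98.7 in *rpb-9* and 230 and 262 in rescue for the 352 listed loci of cluster I. The *rpb-9* mean was 18.4% of wild type in cluster I and 46.6% in cluster II. Cluster I gave 5.68% and 5.75% of the nascent signal of both clusters in wild type and 2.51% and 2.21% in *rpb-9* (exact two-sided permutation test, p = 0.333, the smallest possible). Its share in rescue was 5.47% and 5.31%. In the nucleoplasm the shares were 7.31% and 5.29% in wild type and 1.73% and 1.71% in *rpb-9*, also without overlap and with an exact permutation p of 0.333. These shares rest on few reads in cluster I, 204 and 71 in wild type and 50 and 16 in *rpb-9*. By upstream motif the order of the summed nascent signal was the opposite of that of mature piRNAs. Loci with the exact motif had 38.6% and those without it 47.6% of the wild-type nascent signal in *rpb-9*. In *rpb-9* replicate 1 the signal kept was 34.3% with the exact motif and 41.6% without it, and in replicate 2 42.8% and 53.6%. The ranges overlapped between libraries, but within each library the loci with the exact motif kept less. Their share of the nascent signal of listed loci was 18.76% and 18.86% in wild type and 16.05% and 15.60% in *rpb-9*. The genotypes did not overlap in this share (exact two-sided permutation test, p = 0.333, the smallest possible). Medians over single loci, given below, differed little by motif, and in cluster I they followed the order of mature piRNAs.

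**Figure D5:**
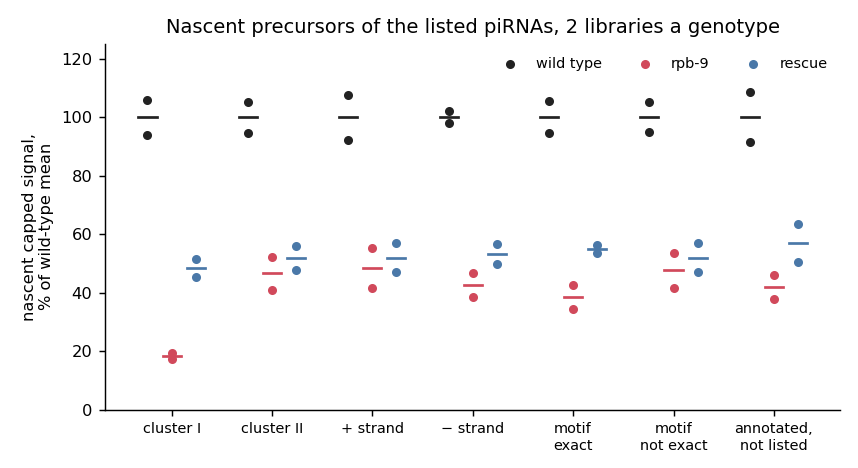
Nascent capped signal of listed loci as a percent of the wild-type mean, for 2 libraries per genotype (points) and their mean (bars), by cluster, strand and presence of the exact motif, beside annotated piRNA loci that are not listed. In *rpb-9* cluster I lies at 17.3% and 19.5%, below every other group shown.

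Locus by locus, the quasi-likelihood test of edgeR, adjusted by Benjamini-Hochberg over the 3100 nascent loci with enough reads, called 62 of 607 listed loci lower in *rpb-9* and 1 higher. Over all loci tested, 5.35% were called lower and 3.03% higher. Most of these loci, 1776 of 3100, are not annotated piRNAs. Of those 1776, 15 were called lower and 89 higher, with a median log2 fold change of 0.54. Annotated piRNA loci that are not listed had 89 of 717 called lower (12.4%), against 10.2% of the listed ones. The median log2 fold change was −1.47 over listed loci, −1.46 over annotated piRNA loci that are not listed and −0.23 over all loci tested. It was −2.87 in cluster I (n = 48) and −1.41 in cluster II (n = 550), −1.46 on the plus and −1.48 on the minus strand, and −1.54 with and −1.47 without the exact motif. By motif within cluster I it was −2.35 with (n = 14) and −3.24 without the exact copy (n = 34), and within cluster II −1.43 and −1.40. Only 607 of the 4317 listed piRNAs had enough nascent reads, and a locus could pass through wild type alone, so these medians do not speak for the rest. With a library left out, 28 listed loci were called lower without wild-type replicate 1, 28 without wild-type replicate 2, 18 without *rpb-9* replicate 1 and 17 without *rpb-9* replicate 2.

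The clearest nascent decrease was that of 21ur-11795 in cluster I (chromosome IV, 5177494 to 5177514, minus strand). Its nascent signal was 65.2 and 80.5 in wild type, 8.74 and 6.31 in *rpb-9*, and 14.1 and 26.4 in rescue. The log2 fold change was −3.28 (standard error 0.46, adjusted p = 0.00406, edgeR). As a mature piRNA it was rare, with 1 read in each wild-type library and 0 in every *rpb-9* library. 21ur-3106 in cluster II had a nascent signal of 20.8 and 17.6 in wild type and 0.564 and 1.147 in *rpb-9* (log2 fold change −4.39, standard error 0.65, adjusted p = 0.00525, edgeR). Its mature level was 44.0 RPM in wild type and 8.96 RPM in *rpb-9*.

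The single listed locus called higher was 21ur-9572 on chromosome III (10807482 to 10807502, plus strand). Its nascent signal was 33.7 and 22.8 in wild type, 66.8 and 101 in *rpb-9*, and 58.1 and 78.8 in rescue (log2 fold change 1.57, standard error 0.39, adjusted p = 0.0322, edgeR). Its mature RPM was 2.66 and 1.65 in wild type and 0.778, 1.72 and 1.62 in *rpb-9*, so the genotypes overlapped, and that its pooled mature value is lower follows from its being listed. With a library left out, 1 listed locus was called higher without wild-type replicate 2, and 0 were without wild-type replicate 1, *rpb-9* replicate 1 or *rpb-9* replicate 2. The next locus in this direction, 21ur-3122, had 0.660 and 4.73 in wild type and 12.1 and 18.4 in *rpb-9*, and did not pass the threshold (log2 fold change 2.53, standard error 0.85, adjusted p = 0.0749, edgeR).

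In the nucleoplasm none of 65 listed loci passed the edgeR test, and none of the 357 loci tested (0% in either direction). At an unadjusted p under 0.05, 7 listed loci were lower and none higher, and DESeq2 called 2 lower. 21ur-2300 had 25 and 9 nucleoplasmic reads in wild type and 0 in both *rpb-9* libraries, and 21ur-5729 had 10 and 18 against 0 and 0, with an adjusted p of 0.265 for each in edgeR. In the other direction, 21ur-2679 had 0 reads in both wild-type libraries and 20 and 4 in *rpb-9* (adjusted p = 0.344, edgeR), and 21ur-845 had 0 and 0 against 10 and 0 (adjusted p = 0.475, edgeR). Listed loci had between 941 and 2899 reads in each wild-type or *rpb-9* library of this fraction, so few of them could be tested.

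Among loci of at least 1 RPM with a nascent test, the nascent log2 fold change and the mature percent kept were only weakly related. Spearman's rho was 0.21 across 552 loci, and Pearson's r was 0.20 with the percent kept taken as log2(percent + 1). Loci share libraries, so these are descriptions. Precursors of the listed loci were longer in *rpb-9*. The median length over distinct nascent sequences was 29 and 29 nt in wild type, 31 and 31 nt in *rpb-9*, and 27 and 27 nt in rescue. In the nucleoplasm it was 28 and 28 nt in wild type, 30 and 30 nt in *rpb-9*, and 29 and 27 nt in rescue. The exact two-sided permutation test gave p = 0.333 in each fraction, the smallest possible. Sequences of 24 nt or less made up 27.0% and 29.9% of distinct nascent sequences in wild type and 19.6% and 18.3% in *rpb-9*. The loci of the table that are not listed are a mixture, since only 5960 of all 11382 capped loci match an annotated piRNA. At the loci that are not listed, the nascent medians over distinct sequences were 32 and 32 nt in wild type and 34 and 33 nt in *rpb-9*. Weighted by reads, the order at these other loci was reversed, with 54 and 57 nt in wild type and 37 and 37 nt in *rpb-9*. In *rpb-9* replicate 1, annotated piRNA loci held only 15018 of the 1108352 nascent reads at loci that are not listed. These weighted medians therefore do not describe unlisted piRNA precursors. At listed loci the weighted medians were 28 and 28 nt in wild type against 31 and 31 nt in *rpb-9*.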

How the data were processed

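5′ dependent small RNA (oxidized, whole animals) and short capped RNA (germ nuclei) were analysed. For mature piRNAs the authors trimmed reads, kept those of small RNA length, aligned them with STAR to ce11 plus the piRNA sensor (1 mismatch) and counted with featureCounts, splitting multi-mapped reads into fractions. The deposited values are on a log2 scale (RPM plus a pseudocount of 1), with 1 value per genotype. For precursors the authors deposited counts per distinct capped sequence, and a signal that is the count times a factor fixed for each library. How that factor was set is not given in the sources used here, and its inverse was used as library size. No molecular identifiers are given for either data type, so read numbers carry counting error at least. Another 36 per-sample columns of other tables were not used.

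Pooled values were resolved into whole reads per library where 1 combination matched within 6.1e-10, up to a pooled log2 value of 9 for 2 libraries and 4 for 3 libraries. Of 400 shifted values per genotype at most 0.250% gave a combination, and of the 300 highest at most 2.33%. Values above these limits, and piRNAs with fractional reads, were left pooled. Genes, strands and overlaps came from the Ensembl annotation of WBcel235, and upstream sequence from the RefSeq assembly. Each piRNA ID matched the annotation. Repeated precursor lines (3815) were removed. Loci were matched to piRNAs by coordinates.

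Nascent and nucleoplasmic reads per locus were tested in R 4.3.3 with edgeR 4.0.16 (quasi-likelihood, all 3 genotypes in 1 fit, at least 10 counts in at least 2 libraries, Benjamini-Hochberg, 0.05), and with DESeq2 1.42.0 as an alternative. Between 12824 and 51556 nascent reads per library fell on listed loci. Scripts used Python 3.11.15, pandas 2.3.3, numpy 2.4.6, scipy 1.17.1 and matplotlib 3.10.9, and were tested on simulated data. The members, clusters, lists and tests were chosen with earlier results of these data known. Alternatives tried were pseudocounts, level minimums, normalizations, left-out libraries and a replicate block. Read recovery, single recovered libraries, match classes, and motif and cluster values at 10 RPM or more, within clusters or against rescue, were added after seeing the data. Named piRNAs are 21ur-4997 and 21ur-8099, the 5 highest in wild type, the 5 largest and smallest falls at 10 RPM or more, the 3 highest at 0 in *rpb-9*, the 3 highest outside both clusters, and per capped fraction the 2 listed loci with the smallest adjusted p in each direction.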

Additional observations from a re-analysis of the deposited data

How the results depend on the processing

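The size of a log2 difference depended on the handling of low values, and so did the order of the clusters. For mature piRNAs the table fixes the sign, so a pseudocount or level minimum could not change it. The median log2 fold change of listed nascent loci stayed negative in every setting. That of listed nucleoplasmic loci was −0.58, and 0 without a filter on low counts. With a pseudocount of 0.1 the median difference of all listed piRNAs was −1.64 in place of −0.69, with at least 1 RPM in wild type it was −1.35, and with at least 1 RPM on average over both genotypes −1.48. Single recovered *rpb-9* libraries, a setting added after seeing the data, cover only the 3912 resolved piRNAs, without the most abundant ones. With *rpb-9* library 1, 2 or 3 alone the median was −0.72, −0.63 or −0.59, and the pooled median of that set was −0.64. Over the same set, the sum kept was 18.7% with the deepest *rpb-9* library alone, and 24.9% and 26.0% with the others. By cluster and strand, a pseudocount of 0.1 gave −1.81 and −1.79 on the plus and minus strand of cluster I and −1.57 and −1.67 in cluster II. At least 1 RPM gave −1.54 and −1.48 in cluster I and −1.34 and −1.33 in cluster II, so under both settings cluster I fell more, whereas with a pseudocount of 1 and no minimum it fell less (−0.64 and −0.55 against −0.70 and −0.82). A pseudocount of 0.1 gave −1.28 under 1 RPM and −1.87 from 1 to 10 RPM.

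The difference in median percent kept between piRNAs with and without the exact motif was 10.6 points. It was 4.57 points at 10 RPM or more in wild type, 5.40 as a percent of rescue, 5.33 in cluster I and 10.02 in cluster II. For 8 against 6 or fewer matching letters it was 13.8. Over resolved piRNAs only, it was 9.72, 9.78 and 9.43 with single recovered *rpb-9* libraries. The difference between cluster I and cluster II was −10.6 points. It was −10.2 at 10 RPM or more in wild type and −13.0 as a percent of rescue. With single recovered *rpb-9* libraries, over resolved piRNAs only, it was −8.98, −12.4 and −11.3.

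Listed nascent loci called lower numbered 62, 122 with DESeq2, 98 with RLE factors, and 17 to 28 with a library left out. Those called higher numbered 1, 2 with DESeq2, 2 with RLE factors, 2 without a filter, 2 with a replicate block, and 0 to 1 with a library left out. The median of all nascent loci was −0.23, −0.12 with TMM and −0.16 with RLE factors, and that of listed loci −1.47, −1.36 and −1.40. Without wild-type replicate 2 these medians were 0.0034 and −1.15. Listed nucleoplasmic loci called lower numbered 0, and 2 with DESeq2. Libraries of the same number in wild type and *rpb-9* did not deviate together (r = −0.03 nascent, r = 0.04 nucleoplasmic), and with the replicate number as a block 58 listed nascent loci were called lower. Wild-type depth limits the values under 1 RPM.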

Other observations

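The A content of the bases 56 to 52 before the piRNA also varied with the loss. Among piRNAs of at least 1 RPM in wild type, the median kept was 20.7% with no A among these 5 bases (n = 197), 20.5% with 1 A, 22.1% with 2, 23.3% with 3, 25.8% with 4 and 31.5% with 5 (n = 270). The median wild-type levels of the extreme classes were 6.72 and 3.65 RPM. Rescue as a percent of wild type also rose, with medians of 93.6%, 94.2%, 96.5%, 101.1%, 101.6% and 107.3% from no A to 5. This stretch was chosen after the values had been seen, and its relation to the upstream motif was not tested.

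21ur-38, the most abundant listed piRNA with 5640 RPM in wild type, had a nascent signal of 1.49 and 9.24 in wild type. 21ur-11795, with 0.463 RPM, had 65.2 and 80.5. Both were named as extremes, the first for its mature level and the second for its nascent decrease, and the listed loci as a set differ from them. The mean summed nascent signal in wild type was 6265 over 683 loci of at least 10 RPM and 726 over 716 loci under 1 RPM.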
